A study of Mus musculus with 4 samples.

Results

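γδ T cells formed a small set of lymphocytes in mouse dura mater and brain, 395 of 14586 kept cells (2.71%), and they are described here in 4 single-cell RNA libraries of sorted CD45+ cells. The study compared tissues of adult C57BL/6J mice (8 weeks old or more) with photothrombotic injury (PTI; D3, called INJ in the labels) and sham-operated ones (S3, called CT), both taken on day 3. In PTI the dye Rose Bengal, activated by white light, damages the vessels of the membranes over the brain and of the brain itself. There was 1 library per tissue and condition, and the number of mice behind each is not given in the sources used here, so no difference between tissues or conditions can be set against the spread between mice. Cells were released with enzymes at a warm temperature before sorting. A cell was chosen as a γδ T cell when at least 2 of the 6 transcripts Trdc, Tcrg-C1, Cd163l1, Trdv4, Il17a and Il23r had a unique molecular identifier (UMI, 1 captured mRNA molecule), at least 1 of Cd3e, Cd3d and Cd3g did, Cd79a had none and the C1qa value was below 1.5 on the natural log scale. The members were thus selected on transcripts of the cells themselves, and the levels of these genes are given as a description. Cells were kept if over 1000 but under 6000 genes were detected in them and mitochondrial genes gave no more than 7% of their UMIs.

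γδ T cells carry an antigen receptor built from a γ and a δ chain in place of the α and β chains of conventional T cells, together with the same CD3 signalling subunits. In mice many of them leave the thymus before or around birth already set to make interleukin 17 (IL-17) or interferon γ, and the IL-17 type depends on transcription factors such as c-MAF (Maf) and SOX13 and responds to IL-23 and IL-1 without a need for prior antigen. Cells of this kind that use the Vγ6 chain are known residents of barrier tissues and of the meninges.

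The shares of the genes that gave the label are a description and not a check of it, since the rule chose cells on them. Trdc, the δ constant region (chr14:54142851-54148868, plus strand, GRCm38), was found in 92.4% of brain S3 members, 98.1% of dura mater S3 members, 97.4% of brain D3 members and 95.7% of dura mater D3 members. Tcrg-C1, a γ constant region, was found in 96.2%, 97.2%, 97.4% and 97.8% of them in the same order. Cd163l1, a scavenger receptor family member on IL-17-type γδ T cells, was found in 78.5%, 89.7%, 89.5% and 93.5%. B cells, which lack these transcripts, served as the background for free RNA. They were taken as kept cells with a UMI of Cd79a and of Ms4a1 and none of Cd3e, Cd3d and Cd3g. Of 494, 458, 79 and 153 B cells 0 held at least 2 of the 6 transcripts, which allows shares of up to 0.607%, 0.655%, 3.80% and 1.96%. B cells with a CD3 UMI were left out while members needed such a UMI, so this background can be too low. In B cells of the S3 libraries a Trdc UMI was seen in 1.01% (brain) and 0.437% (dura mater), at median depths of 4942 and 5581 UMIs against 6400.5 and 6687 in γδ T cells. Transcripts of the β constant regions were common, as they are in γδ T cells in general, with Trbc2 in 91.3% to 97.4% of members. Of 395 members, 19 (4.81%) held a UMI of Cd4, Cd8a or Cd8b1, but 112 (28.4%) held Trac and 267 (67.6%) Trbc1. At least 2 of Trac, Trbc1, Trbc2, Cd4, Cd8a and Cd8b1 had a UMI in 298 of them. Levels are given as UMIs per 1000000 UMIs of the class in that library (CPM). Trac was at 83.1 to 138 CPM in γδ T cells against 462 to 540 in αβ T cells.

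Of the 2 groups of cells next to the threshold, 57 members had exactly 2 of the 6 transcripts and 211 CD3+ cells outside had 1. Just inside, Trdc was found in 71.9% and Tcrg-C1 in 87.7% of cells. Just outside, they were found in 51.2% and 29.9%, and 58.3% of those cells held Cd27 and 46.9% held Ifng, so part of the cells next to the threshold had type 1 transcripts on both sides (Ifng in 54.4% just inside). Members with 3 or more transcripts, 338 cells, held Cd163l1 in 98.8% and Ifng in 4.14%.

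Facts of the libraries that bear on the results are few. Summed UMIs of γδ T cells were 1164595 (brain S3), 734468 (dura mater S3), 263675 (brain D3) and 769836 (dura mater D3), so that brain D3, with 38 cells, was the least precise. Libraries shared 3 to 11 barcodes by pair, and no barcode was a γδ T cell in both. In 6 members S100a8 and S100a9, neutrophil genes, exceeded 50 UMIs together (brain S3 had 2, dura mater S3 had 1, brain D3 had 0 and dura mater D3 had 3). A lower summed level can come from fewer cells with the transcript or from less of it per cell, and both are given. Intervals for levels and ratios are exact Poisson intervals, and those for shares are exact Clopper-Pearson intervals, at 95%. They cover counting error only and take no account of differences between cells or mice.

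**Figure D1:**
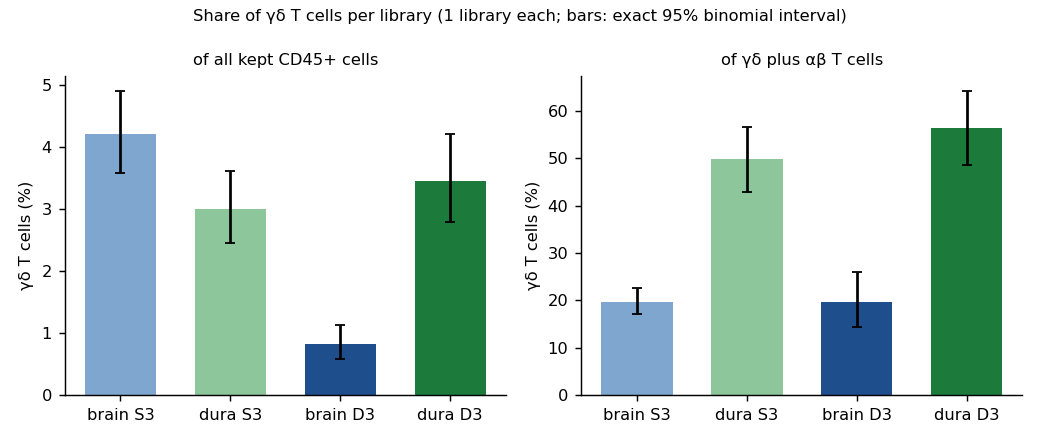
Share of γδ T cells (%, vertical axes) in each library (horizontal axes), of all kept CD45+ cells on the left and of γδ plus αβ T cells on the right. Bars are single libraries and whiskers the exact 95% binomial intervals. The left panel shows brain D3 far below the other libraries, and the right panel shows both dura mater libraries near or above 50%.

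In brain S3, 158 of 3748 kept cells were γδ T cells (4.22%, interval 3.59 to 4.91%), and in dura mater S3 107 of 3569 were (3.00%, 2.46 to 3.61%). After injury they were 38 of 4601 kept cells in brain D3 (0.826%, 0.585 to 1.13%) and 92 of 2668 in dura mater D3 (3.45%, 2.79 to 4.21%). The share in the dura mater libraries thus overlapped within counting error, while that of brain D3 lay below the 3 others. Of the Trdc UMIs of all kept cells, members held 80.5% (brain S3), 72.3% (dura mater S3), 52.8% (brain D3) and 75.3% (dura mater D3). The rule thus left out a larger part of this transcript in brain D3. The part of the Cd79a and C1qa limits in its low share was not tested. Shares of all CD45+ cells move with every other cell type, so the share among T cells is the closer measure. αβ T cells were taken as CD3+ cells outside the γδ rule with at least 2 of Trac, Trbc1, Trbc2, Cd4, Cd8a and Cd8b1. Of γδ plus αβ T cells, γδ T cells were 19.7% in brain S3 (interval 17 to 22.6%) and 19.7% in brain D3 (14.3 to 26%). They were 49.8% in dura mater S3 (42.9 to 56.6%) and 56.4% in dura mater D3 (48.5 to 64.2%). On this denominator the dura mater intervals lay above the brain intervals, and within each tissue the S3 and D3 intervals overlapped. With 1 library per group these are differences between libraries, and whether they hold across mice was not tested.

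The receptor genes describe the members that the rule chose. Trdv4, Cd163l1, Il17a and Il23r were part of the rule, so the receptor types seen here are not independent of it. Trdv4 encodes a δ variable region that can pair with Vγ6, and Tcrg-V6 encodes Vγ6 itself (chr13:19190356-19190929, plus strand, GRCm38). Tcrg-V6, which the rule did not use, had 21 UMIs in 17 brain S3 members, 29 in 27 dura mater S3 members, 4 in 3 brain D3 members and 19 in 17 dura mater D3 members. Tcrg-V4, Tcrg-V1 and Tcrg-V5, the variable regions of other γδ T cells, had 12, 13 and 16 UMIs in all 395 members. Variable regions are read rarely by a 3′ assay, since they lie at the far end of the transcript, so these counts are minimum figures. Trdv4, a gene of the rule, was read more often, with 797 UMIs in 267 members. The constant regions Tcrg-C2 and Tcrg-C4, also unused by the rule, were found in 48.9% and 57.5% of members. No UMI of Tcrg-C3 was counted in any γδ T cell. The γ constant regions are alike in sequence, and reads shared between them may have been dropped or assigned to one, so levels of single constant regions are uncertain.

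Cd163l1 split the members into 340 cells with and 55 cells without a UMI, and the other transcripts differed between these sets. The split uses a gene of the rule, so no test was made. It also nearly follows the threshold, as Cd163l1 was found in 6 of the 57 members with exactly 2 transcripts and in 334 of the 338 with 3 or more. The cells without Cd163l1 are thus mostly those just inside the threshold. Of the cells with Cd163l1, 18.5% held Tcrg-V6 and 77.1% Trdv4, against 1.82% and 9.09% of the cells without. Blk, a Src-family kinase needed for IL-17-type γδ T cells, was found in 88.2% against 10.9%. Sox13 was found in 45% against 7.27%, and Il17a in 51.8% against 10.9%. The cells without Cd163l1 carried genes of type 1 and cytotoxic lymphocytes. Nkg7, a cytotoxic granule protein, was found in 67.3% of them against 7.06% of the others. Ifng, the gene of interferon γ, was found in 54.5% against 4.41%, and Cd27, a costimulatory receptor that marks interferon-γ-type γδ T cells, in 54.5% against 5.59%. The 211 CD3+ cells just outside the threshold had similar shares, with Nkg7 in 72.5%, Ifng in 46.9% and Cd27 in 58.3%. Whether the cells without Cd163l1 form a γδ subset of their own was not tested. Brain S3 gave 34 of the 55 cells without Cd163l1 and carried these pooled shares: Ifng was found in 24 of its 34 (70.6%), against 3 of 11 in dura mater S3 (27.3%), 2 of 4 in brain D3 and 1 of 6 in dura mater D3 (16.7%). Nkg7 was found in 79.4% of them in brain S3 and 36.4% in dura mater S3, and the median number of type 1 genes per cell was 9 and 2. Cxcr6, a chemokine receptor of tissue lymphocytes, was common to both sets, at 97.4% and 89.1%.

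**Figure D2:**
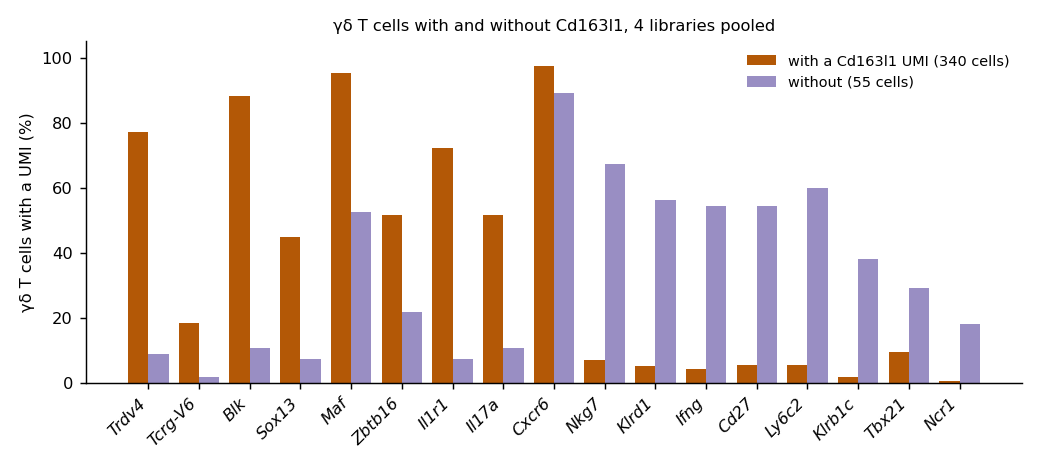
Share of γδ T cells with at least 1 UMI (%, vertical axis) of 17 genes (horizontal axis), for the 340 cells with and the 55 cells without a Cd163l1 UMI, 4 libraries pooled. Receptor and type 17 genes on the left are more frequent in cells with Cd163l1, type 1 genes on the right in cells without, and Cxcr6 is frequent in both.

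Cells without Cd163l1 were 34 of 158 brain S3 members (21.5%, interval 15.4 to 28.8%), 11 of 107 dura mater S3 members (10.3%, 5.24 to 17.7%), 4 of 38 brain D3 members (10.5%, 2.94 to 24.8%) and 6 of 92 dura mater D3 members (6.52%, 2.43 to 13.7%). Brain S3 was highest, and its interval overlapped those of dura mater S3 and brain D3.

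Against αβ T cells of the same libraries, γδ T cells as chosen by the rule had higher levels of type 17 surface receptors. They had lower levels of type 1 and recirculation genes. UMIs of each class were summed per library, and log2(CPM + 10) was fitted with limma with library as a block, so each difference is read against its spread over the 4 libraries. Genes of the class rules were left out of every count. Of 5662 genes, 699 were higher in γδ T cells (12.3%) and 282 lower (4.98%) at an adjusted p below 0.05 (limma, Benjamini-Hochberg over all genes fitted), and the median of all genes was 0.09 on the log2 scale. Leaving out brain S3 or dura mater S3 lowered the 981 calls to 489 or 455, and leaving out members that also met the αβ rule's markers lowered them to 549. With median-of-ratios scaling the split was 484 higher and 394 lower, around a median of -0.02. The classes were set from transcripts of the same cells, and genes that go with those transcripts in a cell are not independent of the rule. Of 211 CD3+ cells with 1 transcript of the γδ rule, 72.5% held Nkg7, and those with enough αβ markers could enter the αβ class. That class held 161 (brain S3), 27 (dura mater S3), 25 (brain D3) and 9 (dura mater D3) Trdc UMIs. The part of this choice in the type 17 and type 1 differences was not tested, and the p-values do not measure it. With members chosen on receptor genes alone, 11 of 11 fitted surface receptor genes were higher and 9 of 16 type 1 genes lower. Libraries rather than mice were the replicates, so the p-values measure the spread between libraries of different tissue and treatment.

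**Figure D3:**
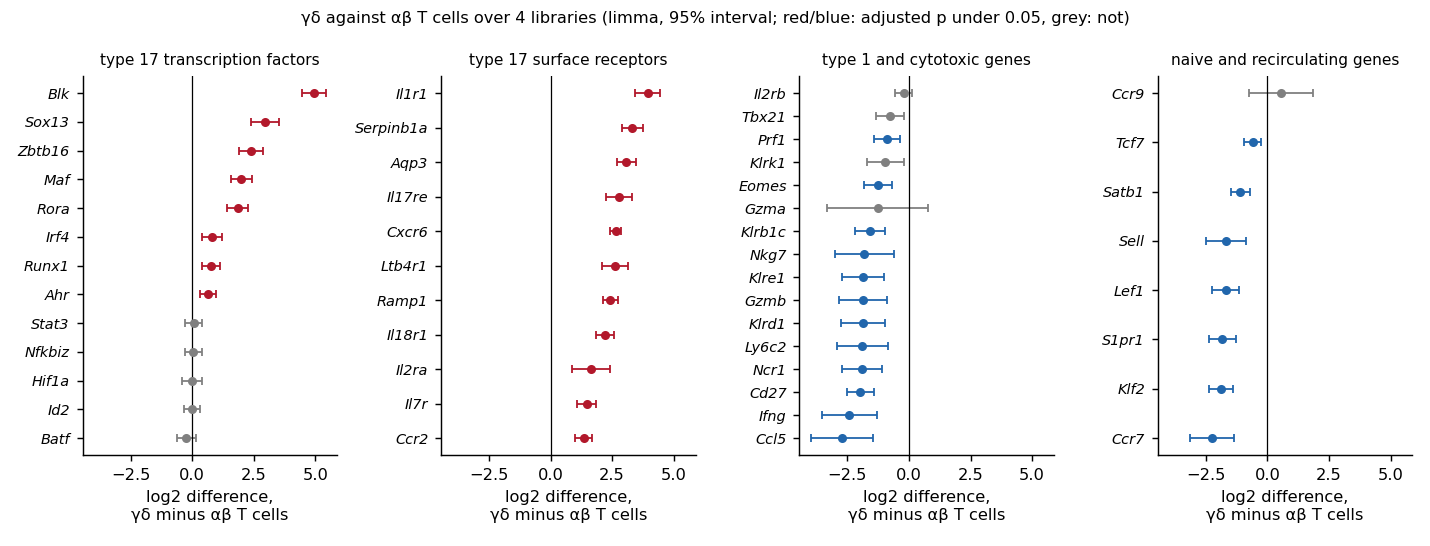
Difference between γδ and αβ T cells in log2(CPM + 10) (horizontal axes) for genes of 4 lists (vertical axes), with 95% intervals from limma over 4 libraries. Red and blue points passed the adjusted threshold and grey points did not. Sox13, Zbtb16, Blk and Irf4 entered through γδ T cells alone, and Eomes, Ncr1 and Ccr7 through αβ T cells alone. The colours of these genes are a description and not a test. The genes of the surface receptor list lie to the right of 0, 3 of them having entered through γδ T cells alone. Most type 1 genes are blue and to the left.

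A gene that reached the filter through the class where it is high had to differ, so list counts are given over genes with a mean of at least 20 CPM in both classes, of which 557 of 5071 were higher (11%) and 210 lower (4.14%), with a median of 0.08. Of 9 such type 17 transcription factors and signalling genes, 4 were higher (Maf, Rora, Ahr and Runx1), 0 lower and 5 did not pass, and their median of 0.06 was close to that of all genes. A further 5, among them Sox13, Zbtb16, Blk and Irf4, entered through γδ T cells and are described without a test. Blk had 375, 498, 197 and 433 CPM in γδ T cells of brain S3, dura mater S3, brain D3 and dura mater D3, against 2.28, 0, 0 and 6.16 in αβ T cells, and the ranges did not overlap. Maf had 463, 711, 353 and 587 CPM against 82.8, 143, 144 and 123, a log2 difference of 2.0 ± 0.19 (adjusted p = 4.3e-04, limma). Stat3, Nfkbiz, Hif1a, Id2 and Batf, which serve many T cell types, did not pass. In brain D3, Blk and Maf had their lowest γδ values of the 4 libraries.

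Of 8 genes of the type 17 surface receptor list with a mean of at least 20 CPM in both classes, 8 were higher, with a median difference of 2.31. The list is named for its receptors, but it also holds Serpinb1a, a protease inhibitor among the 8, and the water channel gene Aqp3. Il1r1, Il17re and Aqp3 entered through γδ T cells, and Il1r1, the IL-1 receptor, had 150, 245, 121 and 205 CPM in γδ T cells against 0.941 to 4.12 in αβ T cells. Cxcr6 had 1048, 1100, 1016 and 903 CPM against 151, 167, 172 and 131, and was among the steadiest genes over libraries, with a log2 difference of 2.64 ± 0.10 (adjusted p = 9.7e-06, limma). Ramp1, part of the receptor for the neuropeptide CGRP, had 599, 971, 482 and 726 CPM against 90.0, 141, 106 and 142 (log2 difference 2.42 ± 0.13, adjusted p = 4.1e-05, limma). Il7r, the receptor chain for the survival cytokine IL-7, was higher by 1.47 ± 0.16. Ccr6, a chemokine receptor often used to find IL-17-type cells, was rare, with a UMI in 29 of 395 members, and was under the filter.

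The type 17 lists together, less the genes of the rule, (28 genes) summed to 7140 CPM for brain S3 (interval 6987 to 7295), 9148 for dura mater S3 (8931 to 9370), 6425 for brain D3 (6122 to 6738) and 7765 for dura mater D3 (7570 to 7965). Dura mater S3 was highest and brain D3 lowest, but neither place held under all choices. Without members that met the αβ markers dura mater D3 (9919) passed dura mater S3 (9268), and without high doublet scores brain D3 (7612) passed brain S3 (7203). αβ T cells held 2018 to 2539 CPM of the same genes and B cells 1203 to 1649. Group 2 innate lymphoid cells (ILC2) held 5739 to 6797, close to the γδ level, so the summed lists do not mark γδ T cells among lymphocytes.

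Other genes that led the difference had less familiar roles in T cells. Serpinb1a, a protease inhibitor, Tmem176a and Tmem176b, related membrane proteins, and Ckb, the brain-type creatine kinase, were higher by 3.32, 3.32, 2.92 and 3.24 on the log2 scale. The keratin gene Krt83 and Igf1r, the receptor for insulin-like growth factor 1, were higher by 3.00 and 2.93 on the same scale. Other genes entered through γδ T cells and are described without a test. Kcnk1, a potassium channel, had 156, 272, 125 and 191 CPM in γδ T cells against 0.686 to 6.16 in αβ T cells. Actn2, an actin cross-linker known from muscle, had 284, 429, 231 and 347 CPM against 8.92 to 21.5. Ly6g5b, Abi3bp and the water channel gene Aqp3 were of this kind too. Of 30 genes chosen by the fixed rule, 15 higher and 15 lower, all had the same direction in 4 of 4 libraries, as the rule required.

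Of the type 1 and cytotoxic genes, 0 of 14 with a mean of at least 20 CPM in both classes were higher and 10 lower in γδ T cells, with a median of -1.84. Ifng had 182, 5.45, 56.9 and 6.49 CPM in γδ T cells against 246, 143, 296 and 211 in αβ T cells, and its log2 difference was -2.42 ± 0.48 (adjusted p = 0.012, limma). The γδ values of both brain libraries lay far above those of both dura mater libraries. Of all type 1 genes fitted, 12 of 16 were lower, but without dura mater S3 3 of 15 and without dura mater D3 7 of 15. Gzmc, a granzyme gene that entered through αβ T cells and is described without a test, was nearly absent from γδ T cells, with 2 UMIs in brain S3 and none elsewhere, against 138 to 210 CPM in αβ T cells.

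Of 6 naive and recirculating genes with that mean in both classes, 6 were lower, with a median of -1.68. Klf2, which drives exit from tissue, had 271, 46.3, 353 and 66.2 CPM against 1359, 257, 714 and 292 (log2 difference -1.88 ± 0.21, adjusted p = 9.9e-04, limma). It was lower in γδ T cells within each library, and both classes had more of it in brain than in dura mater. Of 11 such tissue residence and activation genes, 6 were higher and 1 lower. Over all fitted genes of that list 7 of 15 were higher and 3 lower, but 4 and 6 of 14 without members that met the αβ markers, and 5 and 4 of 14 with median-of-ratios scaling. Pdcd1, the PD-1 receptor, had 203, 474, 277 and 407 CPM against 22.8, 36.7, 44.6 and 93.9 (log2 difference 2.62 ± 0.21, adjusted p = 2.4e-04, limma).

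The T cell receptor signalling genes went both ways. Of 10 with a mean of at least 20 CPM in both classes, 3 were higher (Cd247, Lat and Zap70) and 4 lower (Lck, Cd2, Cd5 and Cd28). Their median of 0.04 was close to the 0.08 of all such genes. Cd6 entered through αβ T cells and is described without a test. It had 10.9 to 13.7 CPM in γδ T cells against 87.9 to 118 in αβ T cells. Zap70, the kinase that binds the CD3 chains, had 301, 358, 220 and 282 CPM against 115, 140, 91.2 and 142 (log2 difference 1.18 ± 0.11, adjusted p = 4.8e-04, limma). Cd28, the main costimulatory receptor of conventional T cells, had 40.4, 9.53, 41.7 and 7.79 CPM against 285, 178, 251 and 228. Its log2 difference was -2.97 ± 0.23 (adjusted p = 2.2e-04, limma). Among cytokines, Tnf, Ltb and Tnfsf11 (RANKL) were higher and Ifng, Ccl4, Ccl5 and Xcl1 lower, but without dura mater S3 none of the list was called lower. No cell cycle gene of 12 passed the threshold, but 6 of 12 were lower without high doublet scores, 5 of 9 without members that met the αβ markers and 5 of 12 without brain D3. Of 10 glycolysis and hypoxia genes 0 passed, and under the alternatives at most 1 did.

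Il17a (chr1:20730905-20734496, plus strand, GRCm38) is a gene of the rule, so its levels are a description. In each library 10 members held most of its γδ UMIs. Of the Il17a UMIs of all kept cells, γδ T cells held 1590 of 1988 for brain S3 (80.0%), 1160 of 1635 for dura mater S3 (70.9%), 237 of 364 for brain D3 (65.1%) and 324 of 538 for dura mater D3 (60.2%). The 10 members with most UMIs held 60.8%, 51.2%, 89.5% and 74.4% of the γδ UMIs in the same order. Cells with 10 or more UMIs were 27 of 158 brain S3 members (17.1%, interval 11.6 to 23.9%), 38 of 107 dura mater S3 members (35.5%, 26.5 to 45.4%), 8 of 38 brain D3 members (21.1%, 9.55 to 37.3%) and 10 of 92 dura mater D3 members (10.9%, 5.34 to 19.1%). Dura mater S3 was highest and dura mater D3 lowest, and their intervals did not overlap.

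**Figure D4:**
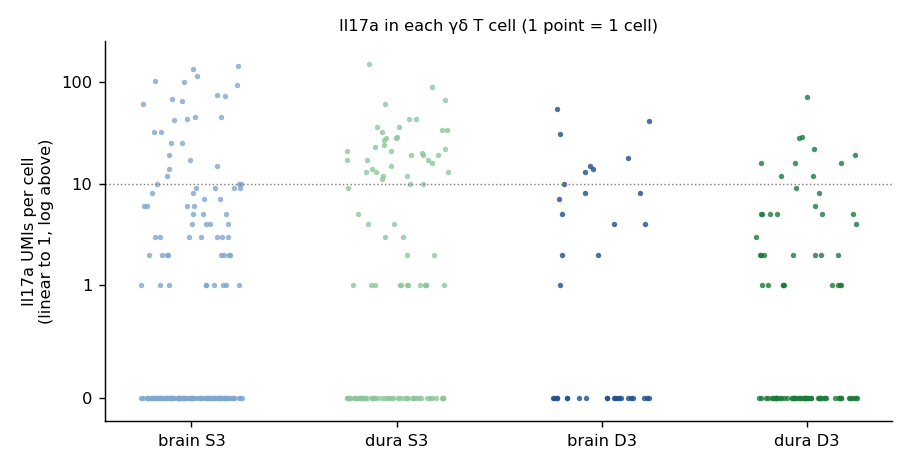
Il17a UMIs in each γδ T cell (vertical axis, linear up to 1 and logarithmic above) by library (horizontal axis), 1 point per cell, with a dotted line at 10 UMIs. Dura mater S3 has 38 of 107 cells at or above the line and dura mater D3 has 10 of 92.

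Il17a and Il17f were past 2-fold lower in injured than in sham dura mater, as were 0.751% of all measured genes, and Il17a helped to choose the members of both libraries. Il17a had 1579 CPM in dura mater S3 (1160 UMIs in 58 of 107 cells) and 421 CPM in dura mater D3 (324 UMIs in 37 of 92 cells), a log2 ratio of D3 over S3 of -1.91 (counting interval -2.09 to -1.73). Without the 6 cells rich in S100a8 and S100a9 it was -1.78, and over the other choices of members it ran from -1.93 to -1.56. After each cell was thinned to 2000 UMIs the share of cells with Il17a was 44.2% in S3 and 26.7% in D3, against 54.2% and 40.2% before. Il17f, the gene next to Il17a, had 48 UMIs in 9 cells in dura mater S3 and 3 UMIs in 2 cells in D3, a log2 ratio of -4.07 (-6.40 to -2.43), with 41.7% of its UMIs in 1 cell. In the brain Il17a had 1365 CPM in S3 and 899 CPM in D3, a log2 ratio of -0.60 (-0.81 to -0.41), and Il17f had 23 and 3 UMIs. Il22, another type 17 cytokine, had 32 UMIs in 6 brain S3 cells, 1 UMI in brain D3 and none in either dura mater library.

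The receptors and factors that go with Il17a did not share its ratio in the dura mater. Of 14 type 17 transcription factors and signalling genes with at least 50 UMIs, 0 were past 2-fold either way. Likewise 0 of 11 genes of the surface receptor list were, leaving out Cd163l1 and Il23r, which the rule used. The medians were -0.17 and -0.26 on the log2 scale, against -0.03 for all 4262 genes. Over all of these genes 113 were past 2-fold higher in D3 (2.65%) and 32 lower (0.751%). Without the cells rich in S100a8 and S100a9 the number past 2-fold was 95 in place of 145, without high doublet scores 61, and without members that met the αβ markers 24. Il23r, a gene of the rule, was found in 44.9% of γδ T cells in S3 and 47.8% in D3. Csf2, the gene of the growth factor GM-CSF, was past 2-fold higher in D3, with 14 UMIs in 13 cells in S3 and 45 in 11 cells in D3 (log2 ratio 1.62, 0.73 to 2.60), but its ratio was -0.41 without members that met the αβ markers. Tnf had 290 CPM in S3 and 147 in D3.

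The upstream sequences of Il17a, Il17f and Il23r are shown because the first and second had ratios past 2-fold in the dura mater and Il23r, the IL-23 receptor, did not. Nuclear receptors bind a half-site read as AGGTCA. It was searched on both strands in the 250 bases before the annotated start (RefSeq, GRCm38.p6), and 15.8% of 27025 genes held it. Capitals mark each match, and the first base of a match lay 120 bases before the start in Il17a, on the opposite strand, 58 bases before it in Il17f, and 66 and 229 bases before it in Il23r. The RefSeq start of Il17f lies within the longer gene span of the GENCODE annotation (chr1:20777146-20790617). A match is a description of letters and not of binding.
Il17a, chr1:20730655-20730904, plus strand: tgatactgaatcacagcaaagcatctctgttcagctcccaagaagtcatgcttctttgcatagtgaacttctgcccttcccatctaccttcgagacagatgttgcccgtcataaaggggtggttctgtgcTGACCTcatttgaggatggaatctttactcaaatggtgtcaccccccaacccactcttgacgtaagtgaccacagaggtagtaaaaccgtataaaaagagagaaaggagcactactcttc
Il17f, chr1:20784271-20784520, minus strand: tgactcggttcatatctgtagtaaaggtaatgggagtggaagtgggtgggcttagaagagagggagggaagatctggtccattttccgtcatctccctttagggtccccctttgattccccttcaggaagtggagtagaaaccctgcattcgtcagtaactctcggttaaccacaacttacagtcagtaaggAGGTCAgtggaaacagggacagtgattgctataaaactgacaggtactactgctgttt
Il23r, chr6:67491856-67492105, minus strand: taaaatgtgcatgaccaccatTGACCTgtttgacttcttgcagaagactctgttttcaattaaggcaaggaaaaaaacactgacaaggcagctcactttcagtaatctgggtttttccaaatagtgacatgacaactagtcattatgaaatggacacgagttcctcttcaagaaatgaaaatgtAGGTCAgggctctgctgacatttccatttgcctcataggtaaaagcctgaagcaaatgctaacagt
No promoter entry was found for Maf, Zbtb16, Blk, Ahr, Nfkbiz and Serpinb1a. Among the rest, the half-site was in 2 of 9 type 17 transcription factors and in 3 of 14 genes of the surface receptor list.

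Interferon-stimulated genes, which respond to interferons and serve antiviral defence, were mostly at lower levels in γδ T cells of injured than of sham dura mater. Of 12 genes in the list 8 had at least 50 UMIs, 5 of them, Isg15, Bst2, Zbp1 and Igtp included, were past 2-fold lower and 1 (Ifi27l2a) past 2-fold higher, with a median log2 ratio of -1.16 against -0.03 for all genes and a background of 0.751% past 2-fold lower. Isg15, a ubiquitin-like protein, had 155 CPM in S3 and 70.1 CPM in D3 (114 UMIs in 32 of 107 cells and 54 in 22 of 92), a log2 ratio of -1.15 (-1.64 to -0.67). Over the other choices of members its ratio ran from -3.61 to -0.85. Bst2, a membrane protein that tethers viruses, had 180 and 81 UMIs (log2 ratio -1.22, -1.62 to -0.83), but with members chosen on Trdc and γ constant regions alone its ratio was -0.11 (-0.43 to 0.21). Zbp1, a sensor of nucleic acids, had 92.6 and 35.1 CPM, a log2 ratio of -1.40 (-2.10 to -0.74). Ifi27l2a, at 32.7 and 79.2 CPM, had a log2 ratio of -0.07 without the cells rich in S100a8 and S100a9. Cxcl10, a chemokine gene induced by interferon, had 55 UMIs in 14 cells in S3 and 12 in 6 cells in D3, a log2 ratio of -2.26 (-3.30 to -1.35), with 43.6% of its UMIs in 1 cell.

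In the brain, Isg15 and Bst2 were higher in D3 γδ T cells. Of 7 listed genes with at least 50 UMIs, these 2 were past 2-fold higher and 0 past 2-fold lower, with a median log2 ratio of 0.59 against -0.01 for all 3926 genes and a background of 1.76% past 2-fold higher. Isg15 had 46.4 CPM in S3 and 155 in D3 (54 UMIs in 33 cells and 41 in 8 cells), a log2 ratio of 1.75 (1.12 to 2.36). Bst2 had 96.2 and 394 CPM, a log2 ratio of 2.04 (1.64 to 2.43), but 0.27 (-1.73 to 1.84) without members that met the αβ markers. Isg15 was thus at 155 CPM in dura mater S3 and in brain D3 and lower in the other libraries. For these genes αβ T cells of the dura mater had ratios of the opposite sign. Their Isg15 was 95.1 CPM in S3 and 189 CPM in D3, a log2 ratio of 0.99 (0.60 to 1.39), and their Bst2 ratio was 0.82 (0.53 to 1.11). In the brain their ratios were 1.75 for Isg15 and 1.47 for Bst2. Each class was compared within 1 pair of libraries, and whether the classes differ across mice was not tested.

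**Figure D5:**
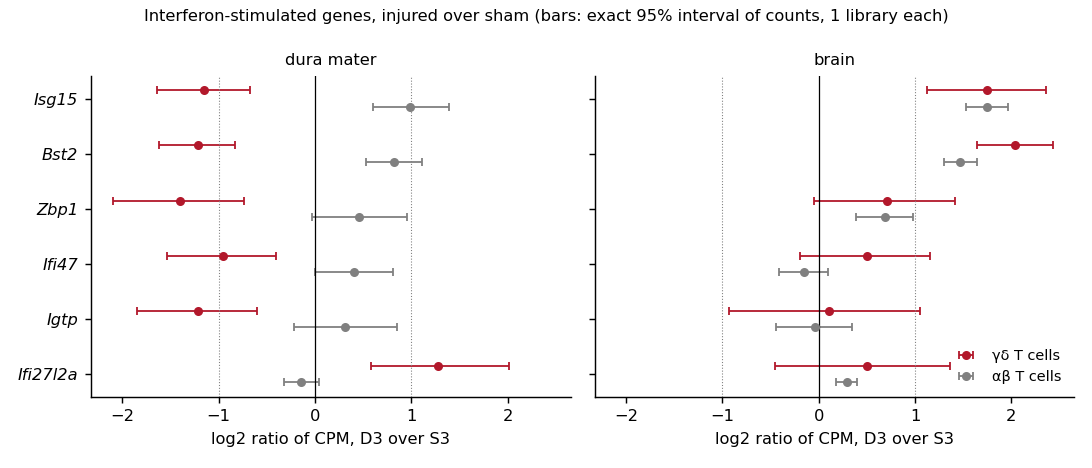
Log2 ratio of CPM, D3 over S3 (horizontal axes), of 6 interferon-stimulated genes with at least 50 UMIs in both tissues (vertical axis), in dura mater on the left and brain on the right, for γδ T cells in red and αβ T cells in grey, with exact 95% intervals of counts and 1 library per group. In dura mater 5 of the 6 γδ ratios lie below 0, Ifi27l2a being the exception, and in brain all 6 lie above 0.

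The upstream sequences of Isg15, Bst2 and Ifit1 are shown because these interferon-stimulated genes carry the letters of the interferon response element, GAAA, any 2 bases and GAAA again, which was searched on both strands in the same windows. It was in 5 of 8 list genes with a promoter entry (Isg15, Ifit1, Ifit3, Bst2 and Igtp) and in 3.46% of all genes. Capitals mark the matches, which overlap in Isg15 and Bst2.
Isg15, chr4:156200819-156201068, minus strand: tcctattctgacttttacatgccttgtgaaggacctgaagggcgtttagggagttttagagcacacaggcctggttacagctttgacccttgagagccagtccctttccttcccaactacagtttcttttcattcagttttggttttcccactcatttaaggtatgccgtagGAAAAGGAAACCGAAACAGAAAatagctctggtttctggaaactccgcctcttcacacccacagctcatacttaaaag
Bst2, chr8:71537473-71537722, minus strand: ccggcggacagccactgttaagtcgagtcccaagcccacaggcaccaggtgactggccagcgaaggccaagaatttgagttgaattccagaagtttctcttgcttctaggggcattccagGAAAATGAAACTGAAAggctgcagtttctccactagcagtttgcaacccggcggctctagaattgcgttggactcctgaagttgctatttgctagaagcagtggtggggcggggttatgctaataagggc
Ifit1, chr19:34640639-34640888, plus strand: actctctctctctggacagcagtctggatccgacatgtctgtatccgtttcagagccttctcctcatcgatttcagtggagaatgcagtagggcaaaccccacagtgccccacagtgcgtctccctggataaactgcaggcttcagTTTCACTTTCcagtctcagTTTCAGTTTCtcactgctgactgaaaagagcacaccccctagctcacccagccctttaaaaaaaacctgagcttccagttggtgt
Ifit1, which helps block viral translation, had 27 UMIs in 9 γδ T cells of dura mater S3 and 9 in 5 cells of dura mater D3, and 4 and 7 UMIs in brain S3 and brain D3. No entry was found for Ifi27l2a, Zbp1 and Rtp4.

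The genes with the largest ratios in injured dura mater were mostly those of myeloid cells. Of the free myeloid RNA list 9 of 13 genes were past 2-fold higher, against 2.65% of all measured genes. Ltf, a neutrophil granule gene, had 10 UMIs in 10 cells in S3 and 384 in 11 cells in D3, 74.7% of the UMIs of both libraries in 1 cell, and its log2 ratio of 5.20 became 0.06 without the 6 cells rich in S100a8 and S100a9. Wfdc21 and Lcn2 likewise moved from 5.27 and 4.48 to -0.17 and 0.00, and Ifitm6 from 5.51 to 2.06. Ccl9 and Fn1, genes of macrophages, stayed at 5.55 and 5.17 without these cells, each with over 50% of its UMIs in 1 cell (55.0% and 56.5%). Ccl1 had 0 UMIs in S3 and 85 in 3 cells in D3, a log2 ratio of 4.76 with S3 set at a floor of 3 counts per library (counting interval from 4.43), with 85.9% of them in 1 cell. C1qa, a macrophage gene, had a UMI in 25.2% of members in dura mater S3 and 34.8% in dura mater D3. The part of doublets and free RNA in these values was not tested. Ly6a, a lymphocyte surface protein, had 230 CPM in S3 and 85.7 CPM in D3, a log2 ratio of -1.42 (-1.86 to -1.01).

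In the brain 69 of 3926 genes were past 2-fold higher in D3 (1.76%) and 184 lower (4.69%), and most named genes rested on few cells. Ccr9, a gut homing receptor, had 20 UMIs in 6 cells in S3 and 49 in 2 cells in D3. Birc5 and Ube2c, cell division genes, had 43 UMIs in 1 cell and 62 in 3 cells in D3, and their ratios of 2.21 and 1.91 became -1.39 and -2.81 without high doublet scores. Xcl1, a chemokine of cytotoxic lymphocytes, had 658 UMIs in 33 cells in S3 and 10 in 2 cells in D3, a log2 ratio of -3.90 (-4.96 to -3.01), but 0.90 without members that met the αβ markers. S100a8, S100a9, Ngp, Retnlg, Camp, Lcn2, Ltf and Mmp8, all neutrophil genes, were past 2-fold lower in D3, and 61.8% to 95.5% of the UMIs of each were in 1 cell. Ifng had 182 CPM in S3 and 56.9 CPM in D3.

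Between the sham libraries, 125 of 4890 genes were past 2-fold higher in brain (2.56%) and 125 lower (2.56%). Of 13 type 1 and cytotoxic genes measured, 12 were past 2-fold higher in brain and 0 lower, with a median log2 ratio of 3.02 against -0.06 for all genes. In 6 of the 13 the dura mater library had under 10 UMIs, so they reached the minimum through brain, and the count is a description. Gzmb, a granzyme, had 176 UMIs in 17 brain cells and 3 in 3 dura mater cells, a log2 ratio of 5.21 (3.64 to 7.50). Ifng had 212 UMIs in 34 cells and 4 in 4 cells, a log2 ratio of 5.06 (3.69 to 6.95). Gzma had 509 UMIs in brain, but 92.3% of the gene's UMIs were in 1 cell. Genes of the type 17 surface receptor list, without Cd163l1 and Il23r, had a median of -0.47, with 12 of 12 measured below 0 and 0 past 2-fold. The brain set held 34 of the 55 members without Cd163l1 and 38 of the 57 members with exactly 2 of the 6 transcripts. Among members with a Cd163l1 UMI the number of genes past 2-fold was 165 in place of 250. Without members that met the αβ markers it was 62.

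Interferon-stimulated genes were mostly lower in sham brain than in sham dura mater. Of 9 measured, 0 were past 2-fold higher and 5 lower, with a median of -1.24 against -0.06 for all genes and 2.56% of all genes past 2-fold lower. Irf7, an interferon regulatory factor, had 19.7 CPM in brain and 85.8 CPM in dura mater (log2 ratio -2.12, -2.88 to -1.41). Klf4 and Nr4a3, transcription factors induced early in activation, had ratios of -2.10 (-2.40 to -1.81) and -1.60 (-1.83 to -1.38), while the list of immediate early and heat shock genes had 3 of 16 past 2-fold higher, 2 lower and a median of -0.03. Tnfsf11 (RANKL), which drives bone-resorbing cells, had 73.0 CPM in brain and 216 CPM in dura mater. Pf4, a platelet and macrophage gene, had 9 and 45 UMIs.

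The 5 genes most like Il17a over the 395 members, by Pearson correlation of the natural log values among 8284 genes found in at least 5% of members, were Cd3g (r = 0.32), Cxcr6 (0.30), Bcl2a1a (0.30), Ltb4r1 (0.29) and Capg (0.29). The cells come from 4 libraries and share their depth and scaling, and the correlation of Il17a with log cell UMIs was -0.08. The correlations are weak and describe these cells only. Within libraries Cxcr6 ran from 0.24 to 0.39 and Ltb4r1, a leukotriene B4 receptor, from 0.16 to 0.41.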

How the data were processed

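FACS-sorted CD45+ cells were prepared with the 10X Chromium 3′ v3 kit. Per the labels and the submitters' processing notes, the authors aligned reads to mm10 with Cell Ranger 3.1.0 and normalised in Seurat 3.1.0. The deposited values are on a natural log scale, ln(1 + UMIs / cell total × 10000), for genes found in at least 3 cells. UMIs were recovered by inverting this, and the largest distance from a whole number was 9.82e-11. The deposited control label CT was taken as the sham S3 group.

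The members and gene lists were chosen with earlier results of these data known. Summed UMIs were compared as CPM with exact conditional Poisson intervals of ratios, where a gene's UMIs came to 50 or more over both libraries, and past 2-fold counted as called. No p-value is given with 1 library per group. Classes were compared with limma 3.58.1 (R 4.3.3; trend, empirical Bayes) on log2(CPM + 10), mean of at least 20 CPM over the 8 sums. Names followed a rule: all list genes by counts, up to 10 genes per direction with an interval past 2-fold, up to 15 per direction in limma, and 5 genes most like Il17a. On simulated counts limma recovered 86 of 94 genes changed 2-fold and 75 of 75 changed 4-fold, with 10 false calls of 5574 genes. The simulation gave all genes the same dispersion and let no class difference vary between libraries. Its figures therefore need not hold for the real comparison.

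Doublets were scored with Scrublet (scanpy 1.11.5). Its automatic threshold did not work, so the highest scores at 0.8% per 1000 barcodes were left out as an alternative, 7 of 395 members. Thinning used the expected hypergeometric share at 2000 UMIs and no member was shallower. After seeing the data, list counts were also restricted to genes with a mean of at least 20 CPM in both classes. Alternatives varied the members, filters, pseudocount, scaling and libraries. Positions are from GENCODE M21 (GRCm38). Some genes are not reported here.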

Additional observations from a re-analysis of the deposited data

Results flagged for a closer look

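Between S3 and D3, 11 genes of the lists moved past 2-fold in γδ T cells of one tissue and the opposite way in the other, with both counting intervals off 0. The same search was not made over all genes, so this count has no background share and is a description. With 1 library per tissue and condition, the difference between tissues was not tested. The log2 ratios of D3 over S3 in dura mater and in brain were -1.22 and 2.04 for Bst2, and -1.15 and 1.75 for Isg15. They were 0.94 and -2.01 for Egr1, an immediate early gene, and 1.65 and -0.86 for Ly6c2, a surface protein of monocytes and of some T cells. Fcer1g and Tyrobp, signalling adaptors of myeloid and NK cells, had 1.99 and -2.20, and 1.99 and -0.66. The neutrophil genes had 4.31 and -4.34 for S100a8, 3.85 and -4.46 for S100a9, 3.93 and -3.42 for Camp, 4.26 and -4.32 for Ngp, and 5.20 and -3.07 for Ltf.

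Without the 6 cells rich in S100a8 and S100a9, 5 of the 11 genes (Bst2, Isg15, Egr1, Ly6c2 and Fcer1g) kept opposite intervals, and the 5 neutrophil genes and Tyrobp did not. For Bst2 the dura mater ratio was -0.11 when members were chosen on Trdc and γ constant regions alone.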

How the results depend on the processing

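Shares and levels moved with the choice of members and denominator. Without members that also met the αβ markers, which leaves 97 cells, the shares were 1.15% (brain S3), 0.644% (dura mater S3), 0.174% (brain D3) and 0.862% (dura mater D3). Of all kept CD3+ cells, where the dura mater libraries were highest in place of brain S3, they were 13.4%, 20.9%, 8.66% and 24.8%. These CD3+ cells include those that the Cd79a and C1qa limits barred from the members, so the denominator is wider than the rule. In brain S3 the share was 3.20% with at least 3 of the 6 transcripts and 3.31% with a Cd163l1 UMI. The type 17 level in the same order of libraries was 8298, 9523, 6816 and 8209 CPM with at least 3 transcripts, and 8142, 9517, 6857 and 8062 with a Cd163l1 UMI. On receptor genes alone it was 6772 in brain S3 and 5984 in brain D3. Without members meeting αβ markers it was 8701 in brain S3 and 9919 in dura mater D3, above the 9268 of dura mater S3. As a mean over cells it was 7926 (brain S3), 7936 (brain D3) and 8772 (dura mater D3). Without high Scrublet scores it was 7612 (brain D3, above the 7203 of brain S3) and 8451 (dura mater D3), and without the cells rich in S100a8 and S100a9, a choice made after seeing the data, 8181 in dura mater D3.

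Genes past 2-fold between D3 and S3 in the dura mater numbered 145. They numbered 24 without members meeting αβ markers, 61 without high Scrublet scores, 95 without the cells rich in S100a8 and S100a9, 513 at a minimum of 20 UMIs and 59 at 100. In the brain 253 became 83, 689 and 75 without members meeting αβ markers and at 20 and 100 UMIs. Between the sham libraries 250 became 62, 674 and 120 in the same way, and also 151 with at least 3 transcripts and 165 with a Cd163l1 UMI, likewise a choice made after seeing the data.

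Of genes called between γδ and αβ T cells, 981 became 549 without members meeting αβ markers, and leaving out 1 library gave 455 (without dura mater S3), 489 (without brain S3), 655 (without dura mater D3) and 1135 (without brain D3). Without a filter on low values 696 of 15865 genes were called. The 30 genes chosen by the fixed rule kept their direction where they had a value: 442 refitted values stayed past the threshold, 6 missed it and 2 refits gave none. No paired analysis was possible because each group has 1 library, and libraries are already the block of the class comparison.

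The D3 over S3 ratio turned sign in the dura mater for Csf2 (-0.41) and Ltf (-2.09) without members meeting αβ markers, for Wfdc21 without high Scrublet scores (-0.09), and for Wfdc21 (-0.17) and Ifi27l2a (-0.07) without the cells rich in S100a8 and S100a9. In the brain it did so for Birc5 (-1.39) and Ube2c (-2.81) without high Scrublet scores, for Irf8 (-0.21), S100a8 (1.08) and Xcl1 (0.90) without members meeting αβ markers, and for S100a8 (0.58), Camp (0.53) and Lcn2 (0.79) without the cells rich in S100a8 and S100a9. Ltf and Mmp8 then had 5 and 4 UMIs in brain S3 and 1 and 0 in brain D3, too few for a sign. Between the sham libraries Il17f turned to 0.57 without members meeting αβ markers. The cause of these changes was not tested. Brain D3, with 38 cells, limits every brain comparison.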

Other observations

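Heat shock genes stood out in sham brain γδ T cells. Hspa1a, an inducible chaperone, had 1242 CPM in brain S3 (100 of 158 cells), 47.7 CPM in dura mater S3, 345 CPM in brain D3 and 46.8 CPM in dura mater D3. αβ T cells of the same libraries had 1243, 76.2, 770 and 69.3 CPM, so the order of libraries was the same in both classes. Hspa1b and Dnajb1 were also past 2-fold higher in brain S3 than in dura mater S3. All libraries went through warm enzyme treatment, and its part in these values was not tested.

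Cell cycle genes were higher in sham brain than in sham dura mater γδ T cells, with 7 of 9 measured past 2-fold higher, against 2.56% of all genes, and a median log2 ratio of 2.27. In 4 of the 9 the dura mater library had under 10 UMIs, and single cells held 53.4% of the UMIs of Ube2c and 36.8% of those of Mki67. Mki67, a marker of dividing cells, had 68 UMIs in 12 cells of brain S3 and 4 in 3 cells of dura mater S3. 5830411N06Rik, a scavenger receptor gene related to Cd163l1, was found in 7 of 55 members without Cd163l1 (12.7%) and in 3 of 340 with it (0.882%).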
